A study of Mus musculus with 6 samples.

Results

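The genes described here are 8 constant region genes of mouse immunoglobulins and 2 genes that antibody-secreting cells use to assemble and export antibody. The heavy chain genes are Ighm, Ighg1, Ighg2b, Ighg2c, Ighg3 and Igha, the light chain genes are Igkc and Iglc2, and the partners are Jchain and Mzb1. They are 10 of the 52550 genes in the count table, of which 31422 had at least 1 count. The list was chosen by gene symbol with the change between the groups and the spread within groups already known, so the difference between the groups in these 10 genes is given as a description with no test.

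RNA from mouse hippocampus was sequenced in 3 control libraries and 3 libraries labelled L-DL KD. Per the study's methods, male C57BL/6 J mice of 8 weeks received bilateral injections of adeno-associated virus (AAV) into the CA1 area of the hippocampus. Both groups therefore carried a virus, which expressed either a control shRNA or an shRNA against L-DL, the long isoform of the RNA-binding protein hnRNP DL, from an H1 promoter, along with zsGreen under a CamkIIα promoter. The control virus was prepared at a higher titre than the L-DL virus. GEO's labels name the groups wild type and hnRNP DL KD, and the descriptions of the KD samples also write hnRNP DL-/-, although the study's methods describe a knockdown. Library totals ran from 16052529 to 17913064 counts, and nothing in the sources used here says whether each library came from 1 animal.

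The 3 libraries labelled L-DL KD are called labelled KD libraries below, since the summed count of the targeted gene was not lower in them. Hnrnpdl stood at 176, 183 and 171 counts per 1000000 (CPM) in the control libraries and at 217, 150 and 173 CPM in the labelled KD libraries (log2 fold change 0.03, SE 0.12, edgeR adjusted p = 0.898). The count of this gene adds the long and the short isoform and does not measure the long one alone. The paper reports reduced L-DL protein by immunoblot in the injected hippocampus, which these counts do not measure, so they do not show whether L-DL was lowered. Of 6 hippocampal genes, 4 were lower in the labelled KD libraries (Neurod6, Rbfox3, Spink8 and Wfs1) and 1 was higher (Zbtb20), and all 6 were read in every library. Of all genes tested, 15.0% were lower and 15.6% were higher. The calls of Wfs1, Spink8 and Zbtb20 were each lost in 2 or 3 of the fits that left out 1 library (edgeR adjusted p up to 0.105), and Prox1 passed as higher in 5 alternatives. The 6 choroid plexus genes set libraries apart inside both groups, with a summed level of 435 to 4615 CPM in controls and 30.7 to 5160 CPM in labelled KD libraries. None of the 6 passed the test with all libraries, and all 6 passed as lower without labelled KD library 1 (log2 fold change -5.23 for Ttr, edgeR adjusted p from 0.0040 to 0.0291).

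An antibody is built of heavy and light chains, and the constant region of the heavy chain sets its class. IgM is made first, and class switching moves the rearranged variable segment next to a downstream gene, which gives IgG or IgA. Plasma cells are the main source of secreted antibody, their immunoglobulin transcripts are very abundant per cell, and in a healthy brain such cells sit mostly in the meninges and at other borders of the tissue. In bulk RNA, fewer cells of a type and less RNA per cell cannot be told apart.

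The 6 heavy chain genes lie on the minus strand of chromosome 12 (GRCm38) in the order Ighm (113418558 to 113422730), Ighg3, Ighg1, Ighg2b, Ighg2c and Igha (113254830 to 113260236). Igkc lies on chromosome 6 (70726435 to 70726966, plus strand), Iglc2 on chromosome 16 (19198396 to 19200351, minus strand) and Jchain on chromosome 5 (88519809 to 88527891, minus strand). The subclasses of IgG differ most visibly in the hinge, the flexible stretch whose cysteines bridge both heavy chains. The hinge exons are shown because they tell the 4 IgG genes apart, among them Ighg1 and Ighg3, the 2 members whose groups did not overlap. They were read from GENCODE M21 transcripts, 5′ to 3′, and capitals mark in-frame cysteine codons.
Ighg1 hinge exon (chr12:113329844-113329882, 39 bases): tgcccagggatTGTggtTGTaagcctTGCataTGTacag
Ighg2b hinge exon (chr12:113307261-113307326, 66 bases): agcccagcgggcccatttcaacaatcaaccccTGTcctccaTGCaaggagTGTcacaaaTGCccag
Ighg2c hinge exon (chr12:113288263-113288325, 63 bases): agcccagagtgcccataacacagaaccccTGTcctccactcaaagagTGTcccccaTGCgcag
Ighg3 hinge exon (chr12:113360529-113360576, 48 bases): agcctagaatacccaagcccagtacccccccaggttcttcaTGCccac

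The Ighg1 and Ighg2b hinges held 4 cysteine codons each, that of Ighg2c held 3 and that of Ighg3 held 1. Over their coding sequences Ighg2b and Ighg2c were 85.6% identical, and the other pairs of IgG genes were 73.9% to 75.5% identical. Runs of 50 bases shared with another constant gene made up 0.393% of the runs in Ighg1, 1.58% in Ighg3, 4.15% in Ighg2b and 5.49% in Ighg2c, while Ighm, Igha and Igkc shared none. In Iglc2 the share was 7.65%, all with Iglc3, so Iglc2, Ighg2c and Ighg2b held the largest shares of such runs. Reads of 150 nt reach past a run of 50 bases, but neighbouring runs can join, and the full length of the shared stretches was not measured.

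IgM and IgA are the classes that join into polymers held by the J chain, which Jchain encodes. The stretch coded only in their secreted form is shown because it ends in the cysteine codon at which the J chain is attached (in capitals), followed by the last codon before the stop. The IgG genes had only 5 coding bases of this kind and no such tail.
Ighm secreted tail (chr12:113420870-113420928, 59 bases): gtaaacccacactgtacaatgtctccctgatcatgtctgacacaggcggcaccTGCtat
Igha secreted tail (chr12:113258771-113258829, 59 bases): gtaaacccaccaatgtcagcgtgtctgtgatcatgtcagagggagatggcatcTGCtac

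The 8 constant genes together took 0.0276%, 0.155% and 0.188% of all counts in control libraries 1 to 3, and 0.118%, 0.214% and 0.341% in labelled KD libraries 1 to 3. Their summed level was 1247 ± 856 CPM in controls (SD, n = 3) and 2218 ± 1096 CPM in labelled KD libraries (SD, n = 3). That is a 1.78-fold higher mean, and the groups overlapped. Control 1 lay far below its group, and the highest control was 6.81 times the lowest, against 2.88 times among the labelled KD libraries. Without control 1 the log2 difference fell from 0.83 to 0.36, and without labelled KD library 3 it was 0.41. It rose to 1.28 without control 3, 1.14 without labelled KD library 1 and 1.01 without control 2.

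All 10 members passed the filter of at least 10 counts in at least 3 libraries, Iglc2 only through 1 control and the 3 labelled KD libraries. The mean was higher in the labelled KD libraries for 9 of them and lower for Mzb1. For 2 of the 10, Ighg1 and Ighg3, every labelled KD library lay above every control. Of all 17621 genes tested, 23.8% had their groups apart in this direction, and the direction entered the choice of the members, so nothing is read from the count. The median log2 difference was 0.92 over the 10 members and 0.01 over all tested genes.

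Ighg3, the constant gene of IgG3, had the largest fold. It was counted 14, 96 and 101 times in control libraries 1 to 3 and 808, 1856 and 1868 times in labelled KD libraries 1 to 3. On the CPM scale these were 0.862, 5.64 and 6.40 against 44.4, 104 and 111. The lowest labelled KD library was thus 6.94 times the highest control, and the mean was 20.1-fold higher (4.30 ± 3.003 against 86.5 ± 36.6 CPM, SD, n = 3 in each group). The log2 difference stayed between 3.74 and 4.54 when any 1 library was left out.

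Ighg1, the constant gene of IgG1, was counted 83, 190 and 100 times in controls and 1339, 474 and 3901 times in labelled KD libraries. The CPM values were 5.11, 11.2 and 6.34 against 73.7, 26.5 and 232. The groups did not overlap, but the labelled KD libraries differed 8.75-fold among themselves, whereas the controls differed 2.18-fold. The mean was 14.7-fold higher (7.53 ± 3.20 against 111 ± 108 CPM, SD, n = 3 in each group). Labelled KD library 3 carried much of this, and without it the log2 difference fell from 3.79 to 2.65.

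The other 2 IgG genes did not separate the groups. Ighg2b stood at 19.3, 421 and 31.4 CPM in controls and at 78.0, 259 and 246 CPM in labelled KD libraries. Control 2 was the highest of all 6 libraries, 21.8 times control 1. The mean was 1.23-fold higher in labelled KD libraries (157 ± 229 against 194 ± 101 CPM, SD, n = 3 in each group). Without control 2 the log2 difference rose from 0.30 to 2.91, and without control 1 or control 3 it turned to -0.22 and -0.18.

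Ighg2c, which C57BL/6 mice carry in place of the Ighg2a of other strains, stood at 42.3, 443 and 167 CPM in controls and at 170, 395 and 485 CPM in labelled KD libraries. Control 2 again lay among the labelled KD values, and the mean was 1.61-fold higher (217 ± 205 against 350 ± 162 CPM, SD, n = 3 in each group). Leaving out 1 library moved the log2 difference of 0.69 to between 0.20 (without control 1) and 1.74 (without control 2), and it was 0.38 without labelled KD library 3.

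Ighm, the gene of the first class made, stood at 75.9, 134 and 794 CPM in controls and at 409, 618 and 993 CPM in labelled KD libraries. Only control 3 reached into the range of the labelled KD libraries. The mean was 2.01-fold higher (335 ± 399 against 674 ± 296 CPM, SD, n = 3 in each group), and leaving out 1 library moved the log2 difference of 1.01 to between 0.54 (without control 1) and 2.67 (without control 3).

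Igha, the gene of the class that serves mucosal surfaces, showed nearly equal means of 192 ± 192 and 207 ± 138 CPM (SD, n = 3 in each group). It stood at 62.0, 102 and 413 CPM in controls and at 97.7, 162 and 362 CPM in labelled KD libraries. The highest single value belonged to control 3, without which the log2 difference rose from 0.11 to 1.34. It turned negative without control 1 (-0.31), control 2 (-0.19) or labelled KD library 3 (-0.56).

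Igkc, the only kappa constant gene, stood at 75.8, 428 and 491 CPM in controls and at 279, 569 and 917 CPM in labelled KD libraries. The groups overlapped, and the mean was 1.77-fold higher (332 ± 224 against 588 ± 320 CPM, SD, n = 3 in each group). Its log2 difference of 0.83 fell to 0.36 without control 1 and to 0.35 without labelled KD library 3, and rose to 1.22 without control 3. Iglc2, a lambda constant gene, was read 0, 9 and 85 times in controls and 213, 100 and 80 times in labelled KD libraries. Its order was unlike that of the other members, since labelled KD library 1 was highest and library 3 lowest in that group. Control 3, at 5.39 CPM, lay above labelled KD library 3, at 4.76 CPM, and without control 3 the log2 difference rose from 1.67 to 3.36.

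Jchain, the link of polymeric IgM and IgA, stood at 25.9, 84.6 and 184 CPM in controls and at 108, 186 and 315 CPM in labelled KD libraries. Control 3 lay between labelled KD libraries 1 and 2. The mean was 2.07-fold higher (98.2 ± 79.9 against 203 ± 104 CPM, SD, n = 3 in each group). The log2 difference of 1.05 became 1.87 without control 3, 0.60 without control 1 and 0.58 without labelled KD library 3.

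Mzb1, on the minus strand of chromosome 18, encodes an endoplasmic reticulum protein that helps IgM assembly in marginal zone B cells and plasma cells, and it went the other way. It was counted 43, 144 and 183 times in controls and 74, 99 and 132 times in labelled KD libraries, or 2.65, 8.45 and 11.6 against 4.07, 5.54 and 7.85 CPM. The labelled KD values lay inside the range of the controls. The mean was 0.769 times that of the controls (log2 difference -0.35). The log2 difference was 0.06 without control 3, -0.74 without control 1 and -0.60 without labelled KD library 3.

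**Figure D1:**
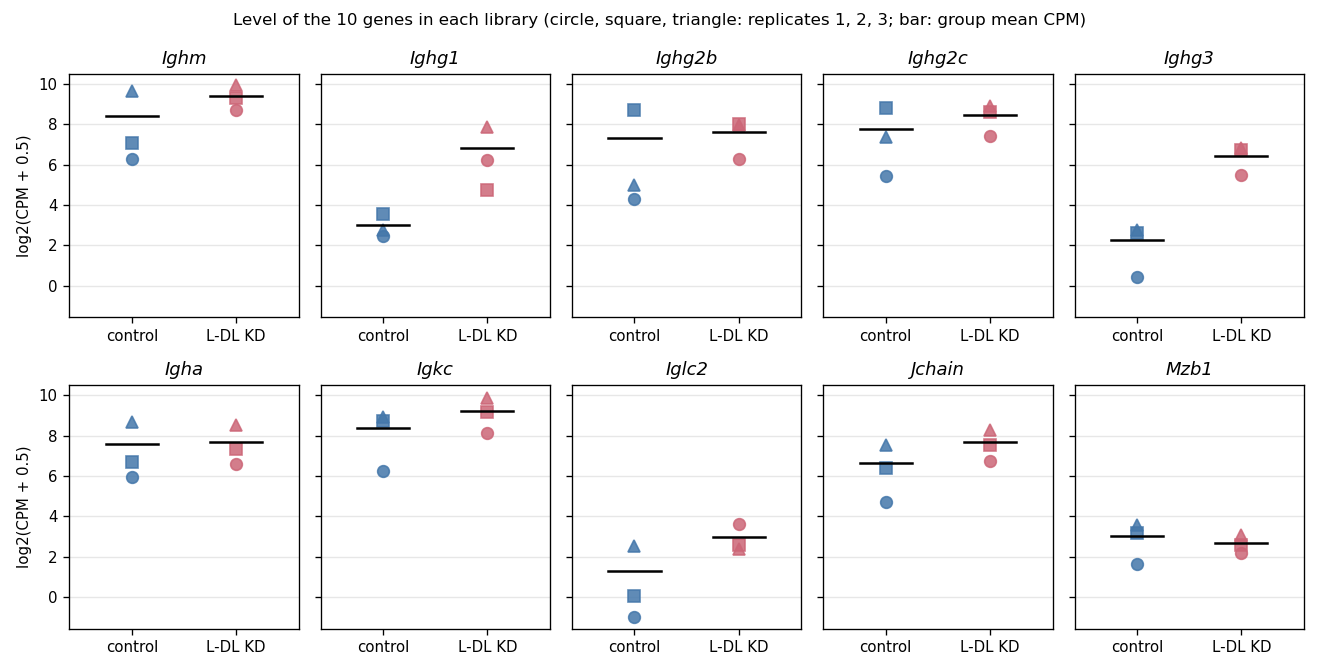
Each panel plots 1 gene, with the level of each library on the log2(CPM + 0.5) scale, controls in blue, labelled KD libraries in red, and a bar at the log2 of the group's mean CPM + 0.5. Only Ighg1 and Ighg3 show groups that do not overlap, and control 1 is the lowest control for each of the 10 genes.

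Levels between members were compared as CPM per kilobase of 1 annotated transcript each. Igkc was the highest member in each of the 6 libraries. In controls it stood at 623 ± 421 CPM per kilobase (SD, n = 3), followed by Ighm at 224 ± 267, Ighg2c at 196 ± 184, Igha at 175 ± 175, Ighg2b at 141 ± 205 and Jchain at 70.5 ± 57.3. The 5 that follow Igkc in this order overlapped one another between libraries, so their order is not beyond the spread. Mzb1 (8.37 ± 5.03), Ighg1 (7.002 ± 2.97), Iglc2 (4.31 ± 6.49) and Ighg3 (3.97 ± 2.78) overlapped one another and lay lower, since none of their control libraries reached the lowest control library of any of the first 6 genes.

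In the labelled KD libraries, Igkc (1105 ± 601, SD, n = 3), Ighm (451 ± 198) and Ighg2c (315 ± 146) kept the first 3 places on the scale of CPM per kilobase. Ighg1 stood at 103 ± 100 and Ighg3 at 80.0 ± 33.8, and both overlapped Igha, Ighg2b and Jchain. Iglc2 at 16.1 ± 8.29 and Mzb1 at 6.44 ± 2.11 were the lowest. In both groups the kappa gene stood far above the lambda gene.

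The balance of classes was taken as shares of the counts of the 6 heavy chain constant genes in each library. These are counts per gene, with 95% Clopper-Pearson intervals that cover counting error only. In control 1, Ighm took 36.9% (35.3 to 38.6), the 4 IgG genes 32.9% (31.3 to 34.5) and Igha 30.2% (28.6 to 31.8). In control 2, IgG took 78.9% (78.3 to 79.4), Ighm 12.03% and Igha 9.12%. In control 3, Ighm led with 56.0% (55.3 to 56.6), Igha took 29.1% and IgG only 14.9% (14.4 to 15.4).

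Each control thus had another leading class or an even mix, and the differences between controls were far wider than their counting error. The labelled KD libraries were closer to one another. Ighm took 46.9%, 39.5% and 40.9% in labelled KD libraries 1 to 3, and IgG took 41.9%, 50.1% and 44.2%. The SD of the Ighm share was 22.0 percentage points in controls (mean 35.0%, n = 3) and 3.92 points in labelled KD libraries (mean 42.4%, n = 3), and that of the IgG share was 33.0 against 4.22 points. Igha took 11.2%, 10.4% and 14.9% of heavy chain counts in the labelled KD libraries, where 2 of 3 controls lay near 30% and control 2 lay at 9.12%.

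Within the heavy chain counts the clearest contrast was again Ighg3. Its share was 0.419% (0.229 to 0.703), 0.505% (0.409 to 0.616) and 0.452% (0.368 to 0.549) in controls 1 to 3, so the intervals of the 3 controls overlapped although their other classes differed widely. It was 5.09% (4.75 to 5.44), 6.64% (6.35 to 6.94) and 4.58% (4.38 to 4.78) in labelled KD libraries 1 to 3. The share of Ighg1 was 2.49%, 0.999% and 0.447% in controls and 8.44%, 1.70% and 9.56% in labelled KD libraries. Unlike that of Ighg3, it overlapped between the groups, since labelled KD library 2 lay below control 1.

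Among the IgG counts alone, Ighg3 made up 1.27%, 0.640% and 3.03% in controls and 12.1%, 13.3% and 10.4% in labelled KD libraries. Ighg3 counts per Ighg2c count were 0.0204, 0.0127 and 0.0384 in controls and 0.262, 0.263 and 0.229 in labelled KD libraries. This ratio was thus nearly the same in the 3 labelled KD libraries. Ighg2b counts per Ighg2c count ranged from 0.188 to 0.952 in controls and from 0.459 to 0.655 in labelled KD libraries.

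**Figure D2:**
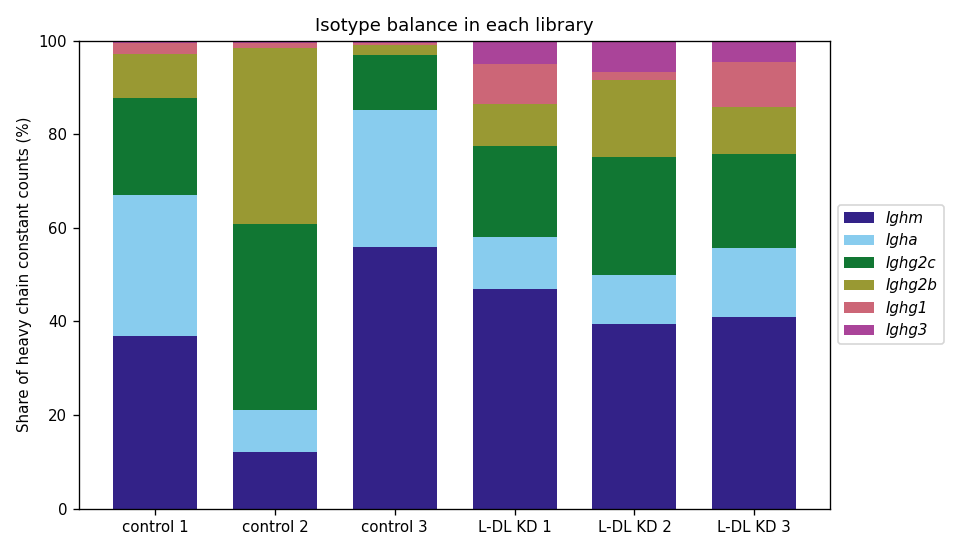
Stacked bars give the share (%) of each of 6 heavy chain genes in the summed heavy chain constant counts of each library. Controls range from 12.03% to 56.0% Ighm while the labelled KD libraries lie between 39.5% and 46.9%, and the top 2 segments (Ighg1 and Ighg3) are wider together in every labelled KD library than in any control.

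The kappa gene followed the heavy chains closely. Igkc counts per heavy chain constant count ran from 0.346 to 0.383 in controls and from 0.319 to 0.377 in labelled KD libraries, while the heavy chain counts themselves ran from 3339 to 40826. Counts on heavy chain variable segments per heavy chain constant count ran from 0.143 to 0.243 in controls and from 0.217 to 0.235 in labelled KD libraries. The antibody transcripts were mostly kappa. Iglc2 made up 0 of 1231 light chain constant counts in control 1, which allows a share of up to 0.244%, and 0.123% and 1.09% in controls 2 and 3. In labelled KD libraries 1 to 3 it made up 4.04% (3.52 to 4.602), 0.975% (0.794 to 1.19) and 0.517% (0.410 to 0.642), so the groups overlapped. The lambda variable segments, summed, did not overlap, with 42, 50 and 299 counts in controls and 897, 595 and 716 counts in labelled KD libraries (5.12-fold higher mean CPM).

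The partners did not scale with the constant genes in the same way. Jchain counts per summed Ighm and Igha count were 0.188, 0.358 and 0.153 in controls and 0.214, 0.239 and 0.232 in labelled KD libraries. Per IgG count they were 0.383, 0.0961 and 0.871 in controls and 0.296, 0.238 and 0.293 in labelled KD libraries. Control 2, with its high IgG share, was the highest on the first ratio and the lowest on the second. Mzb1 counts per 1000 constant gene counts were 9.41, 5.47 and 6.06 in controls and 3.50, 2.59 and 2.34 in labelled KD libraries, and these groups did not overlap.

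**Figure D3:**
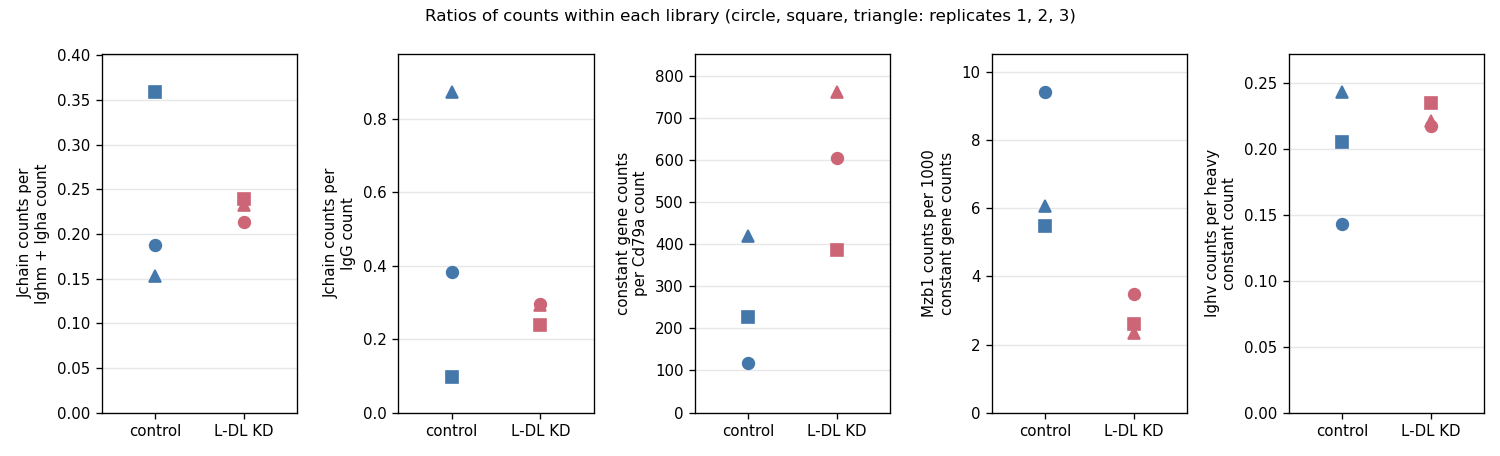
Each panel plots 1 ratio of raw counts per library, with controls in blue and labelled KD libraries in red. Jchain ratios spread from 0.153 to 0.358 per IgM and IgA count in controls and from 0.214 to 0.239 in labelled KD libraries, and Mzb1 per 1000 constant gene counts lies at 5.47 or more in controls and at 3.50 or less in labelled KD libraries.

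The spread within groups was a feature of these genes. The SD of log2(CPM + 0.5) over the 3 controls was 0.55 for Ighg1, 1.02 for Mzb1 and between 1.31 and 2.37 for the other 8 members, and its median over all tested genes was 0.12. Ighg2b, at 2.37, was exceeded by 0.0397% of tested genes. In the labelled KD libraries the SD ran from 0.44 (Mzb1) to 1.55 (Ighg1), with a median of 0.17 over all tested genes. The spread entered the choice of the members and is given as a description.

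Over the 6 libraries, Igkc followed the summed constant level most closely (Pearson's r of log2 values 0.998, to which it contributes), then Jchain (0.968) and Ighg2c (0.909), while Ighg1 followed it least (0.592). Of 17521 tested genes outside the immunoglobulin loci, the 5 most alike were Pin4 (0.994), Slc30a4 (0.985), Zfp930 (0.985), Tas1r3 (0.983) and Arid3b (0.982). Their levels moved much less, Pin4 from 6.52 to 10.5 CPM and Slc30a4 from 44.9 to 52.5 CPM. All these correlations rest on the same 6 libraries, of which control 1 is the lowest, and are descriptions.

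Markers of other cell types were read in the same libraries, where 15.6% of all tested genes were higher and 15.0% were lower. All 8 microglial genes were higher (Tmem119 was lost without control 1, edgeR adjusted p = 0.0503), with a summed level of 1120 to 1396 CPM in controls and 2373 to 3017 CPM in labelled KD libraries. Of 6 meningeal and fibroblast genes, Col1a1, Col1a2, Dcn, Lum and Slc6a13 were higher and Ptgds did not pass. Dcn and Slc6a13 were each lost in 4 of the fits that left out 1 library (edgeR adjusted p up to 0.111 and 0.0999), and Ptgds passed as lower without labelled KD library 3 (0.0213). The summed level of the 6 genes was 398 to 492 CPM in controls and 418 to 925 CPM in labelled KD libraries. Of 10 T cell genes, 2 were lower (Trac and Lck), where 15.0% of all tested genes were lower. Trac was lost without control 2 or labelled KD library 2 (edgeR adjusted p = 0.0653 and 0.0514), and Lck without any of 4 single libraries (up to 0.127) or with a replicate block (0.0582). Cd3e passed as lower with a replicate block and without labelled KD library 3 (edgeR adjusted p = 0.0491 and 0.0412), and Cd2 with DESeq2 (adjusted p = 0.0496). The median log2 fold change of the 10 T cell genes was -0.72. The summed T cell level was 54.1 to 85.3 CPM in controls and 31.0 to 54.1 CPM in labelled KD libraries. None of 4 tested red blood cell genes and not the 1 tested neutrophil gene passed, although the summed red blood cell level did not overlap between the groups (4.44 to 7.05 CPM in controls, 7.65 to 12.3 CPM in labelled KD libraries). Hba-a1 passed as higher without labelled KD library 1 (edgeR adjusted p = 0.0264). The summed neutrophil level was 0.881 to 3.20 CPM in controls and 0.880 to 2.86 CPM in labelled KD libraries. The part of these cell types in the antibody genes' levels was not tested.

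The libraries stood in different orders for the choroid plexus and the antibody genes. Labelled KD library 3 had the lowest summed choroid plexus level (30.7 CPM) and the highest summed constant level. Controls 2 and 3 differed in choroid plexus level (435 and 4615 CPM) and had summed constant counts of 26323 and 30187.

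The genes around the members were tested with edgeR's quasi-likelihood method over all 17621 genes. Of these genes, 15.6% were higher and 15.0% were lower in the labelled KD libraries at an adjusted p under 0.05. Of the 5 other constant genes, only the lambda gene Iglc1 had enough counts, and it rose. It was read 5, 17 and 10 times in controls and 45, 40 and 69 times in labelled KD libraries, with no overlap (log2 fold change 2.16, SE 0.45, edgeR adjusted p = 0.0087). Ighd and Ighe, the genes of IgD and IgE, were read at most 12 and 11 times in any library.

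Most B cell genes did not pass the test. Of 16 listed genes 15 were tested, and 3 rose, none fell and 12 did not pass, with a median log2 fold change of -0.16. Of all tested genes, 15.6% rose and 15.0% fell. Cd79a, a signalling chain of the antigen receptor, was read 39, 116 and 72 times in controls and 35, 99 and 74 times in labelled KD libraries (log2 fold change -0.22, SE 0.46, edgeR adjusted p = 0.758). Its partner chain Cd79b showed a log2 fold change of 0.48 (SE 0.31), Ms4a1, which encodes CD20, -0.16 (SE 0.56), and Pax5, the B cell identity factor, -1.35 (SE 0.65). None of these passed, with edgeR adjusted p from 0.158 to 0.856.

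The 3 B cell list genes that rose were Cd72 (log2 fold change 3.43, SE 0.20, adjusted p = 8.37e-05), Cd22 (1.35, SE 0.20) and Cd37 (1.03, SE 0.18), at adjusted p of at most 0.00394 in the edgeR fit. Cd72 and Cd22 encode inhibitory receptors and Cd37 a tetraspanin, and all of them are also made by microglia or other myeloid cells. Cd72 stood at 3.75, 4.46 and 2.92 CPM in controls and at 49.0, 34.3 and 37.0 CPM in labelled KD libraries. The constant genes outnumbered Cd79a by 117, 227 and 419 counts to 1 in controls and by 604, 386 and 761 to 1 in labelled KD libraries, with an overlap at control 3 and labelled KD library 2.

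Most plasma cell genes did not pass in the main fit, and the number that passed depended on the fit. Of 16 listed, 15 were tested, 4 rose, 1 fell and 10 did not pass, where 15.6% of all tested genes rose and 15.0% fell, with a median log2 fold change of 0.39. Sdc1, the gene of the plasma cell surface marker CD138, rose from 1.97, 3.99 and 4.31 CPM to 12.3, 6.72 and 14.2 CPM (log2 fold change 1.69, SE 0.36, edgeR adjusted p = 0.0096). Tnfrsf13b, which encodes the receptor TACI for the survival factors BAFF and APRIL, rose by 1.01 (SE 0.21) on the log2 scale. Cd38, an ectoenzyme also found on other cells, rose by 0.71 (SE 0.17) and was lost without control 2 or control 3 (adjusted p = 0.0511 and 0.0597 with edgeR). Tent5c, a poly(A) polymerase, rose by 0.43 (SE 0.08), and Pim2, a survival kinase, fell by 0.75 on the log2 scale (SE 0.08). Txndc5 showed 0.42 (SE 0.15, edgeR adjusted p = 0.0655). It passed as higher with DESeq2, with no filter, with a replicate block and without labelled KD library 1. Ell2 showed 0.39 (SE 0.15, edgeR adjusted p = 0.0891) and passed as higher only without labelled KD library 1.

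The regulators of the plasma cell program did not pass the main test, and 2 of them lay near its threshold. Prdm1, which encodes Blimp-1, showed a log2 fold change of 0.81 (SE 0.27, edgeR adjusted p = 0.0548), and Pou2af1, a B cell coactivator, 1.32 (SE 0.49, edgeR adjusted p = 0.0769). Both passed without labelled KD library 1 (edgeR adjusted p = 0.0030 and 0.0386), with DESeq2 (adjusted p = 0.0260 and 0.0114), with no filter and with a replicate block. Prdm1 also passed with scaling by library size, and Pou2af1 without control 3. Xbp1, which expands the secretory apparatus, showed 0.22 (SE 0.24) and Irf4 -0.11 (SE 0.38), and Xbp1 passed without labelled KD library 1 (edgeR adjusted p = 0.0035). Tnfrsf17, the gene of the plasma cell receptor BCMA, had 2 to 14 counts per library and was not tested.

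**Figure D4:**
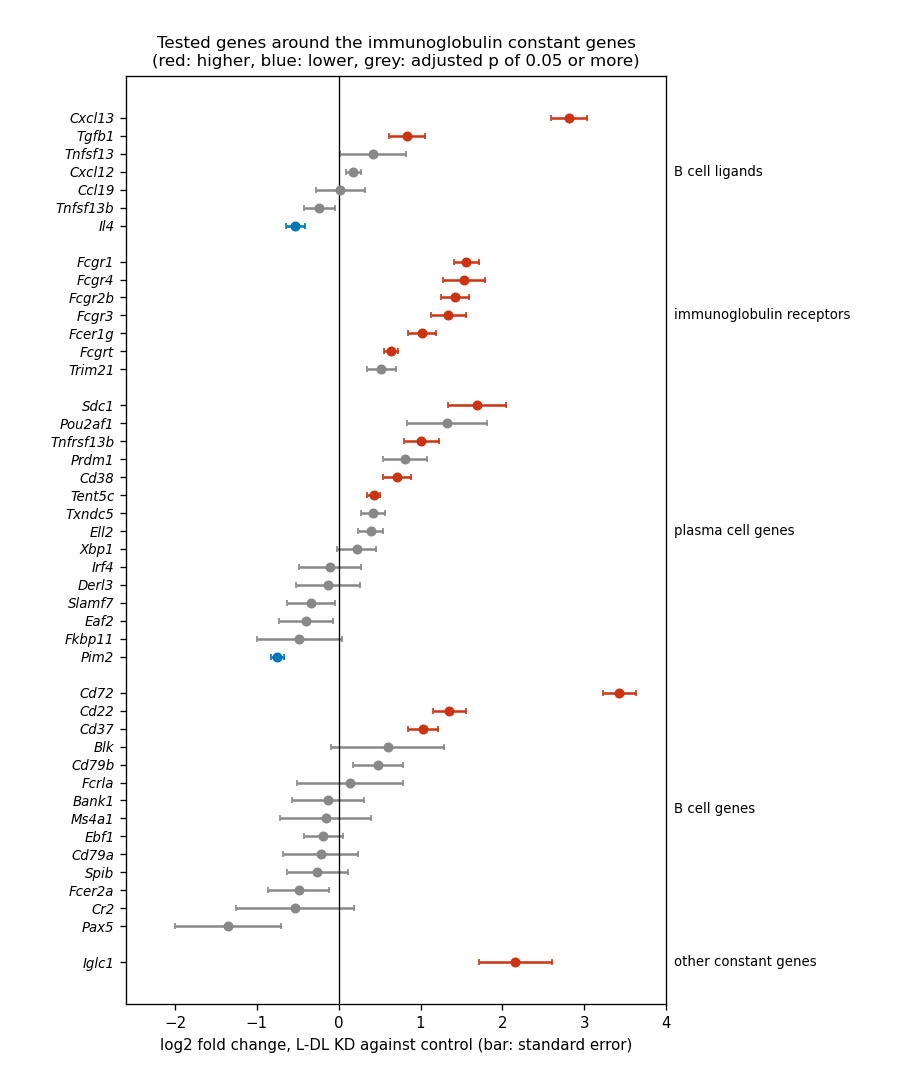
Points give the edgeR log2 fold change of the tested genes of 5 lists, with 1 B cell gene left out, labelled KD against control, with a bar of 1 standard error on each side, red where the gene was higher, blue where it was lower and grey where it did not pass. Cd72 (3.43) and Cxcl13 (2.82) lie farthest to the right, while Ms4a1, Cd79a and Pax5 lie left of 0 with wide bars.

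Most of the tested receptors for antibody rose. Of 10 genes 7 were tested, 6 rose and none fell, where 15.6% of all tested genes rose. The median log2 fold change was 1.34. The rises were 1.56 (SE 0.15) for Fcgr1, the high-affinity IgG receptor, 1.53 (SE 0.26) for Fcgr4, 1.42 (SE 0.17) for the inhibitory receptor Fcgr2b and 1.34 (SE 0.21) for Fcgr3. Fcgr1 stood at 25.7, 20.3 and 19.2 CPM in controls and at 54.1, 64.8 and 72.7 CPM in labelled KD libraries. Fcer1g, the shared signalling chain, rose by 1.02 (SE 0.17) and Fcgrt, the neonatal Fc receptor that recycles IgG, by 0.64 (SE 0.09). Microglia are known to make these Fcγ receptors and Fcer1g, and the 8 microglial markers rose beside them with a median of 1.02. Trim21, a cytosolic antibody receptor, showed 0.52 (SE 0.18, edgeR adjusted p = 0.0624). It passed with scaling by library size (0.0495), DESeq2 (0.0273), no filter (0.0364) and without labelled KD library 1 (edgeR adjusted p = 0.00109). Pigr, which carries polymeric antibody across epithelia, had at most 2 counts in any library.

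Of 12 signals that draw or sustain B cells and plasma cells, 7 were tested, 2 rose and 1 fell. Of all tested genes, 15.6% rose and 15.0% fell. Cxcl13, the chemokine that attracts B cells, stood at 3.26, 5.23 and 2.98 CPM in controls and at 25.9, 30.6 and 25.1 CPM in labelled KD libraries (log2 fold change 2.82, SE 0.22, edgeR adjusted p = 0.00019). Microglia also make it. Tgfb1, whose product directs switching to IgA, rose by 0.83 (SE 0.22), a call lost without control 1, labelled KD library 2 or labelled KD library 3 (edgeR adjusted p = 0.0757, 0.0548 and 0.0620). Il4, whose product directs switching to IgG1 and IgE, fell by 0.53 (SE 0.12) on the log2 scale and was lost without control 3 (edgeR adjusted p = 0.0515). The genes of the survival factors BAFF and APRIL, Tnfsf13b and Tnfsf13, showed -0.24 (SE 0.19) and 0.42 (SE 0.40) and did not pass. Ifng was read 6, 13 and 5 times in controls and 0, 1 and 1 times in labelled KD libraries, too few for the main test. With no filter it passed as lower (log2 fold change -3.44, edgeR adjusted p = 0.0308).

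The deposited junction counts held 1 exon-skipping event in each of 3 members. These columns do not name their group, so the values are ranges over the 6 libraries. The event of Ighg2c was its hinge exon of 63 bases, printed above, which was included in 275 to 3780 junction counts and skipped in 0 to 5, or in 9 of 13363 counts in all. Jchain had an exon of 121 bases (chr5:88526099-88526219) included in 210 to 3001 counts and skipped in 2 of 8538 in all. Mzb1 had an exon of 111 bases included in 37 to 111 counts and skipped in 0 to 3. In all 3 genes the included form made up nearly all junction counts.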

How the data were processed

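Total RNA from hippocampus was made into oligo(dT)-selected libraries with a NEBNext Ultra kit and sequenced as 150 nt pairs. The authors deposited raw counts per Ensembl gene on GRCm38 (mm10) without normalization, and a table of junction counts of splicing events. The submitters' processing notes name Bowtie (version 1.1.2), HISAT2 (version 2.1.0) and HTSeq (version 0.6.1). How strand and shared reads were treated in counting is not given in the sources used here. Igkc and Mzb1 are annotated as overlapping other loci, and reads of an overlapping gene cannot be told apart without strand. Counts of the heavy chain genes add secreted and membrane forms. The deposited p-values, FDR and inclusion levels of the authors' own splicing comparison were not used.

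Counts were scaled by TMM to CPM, and log2 values used CPM + 0.5. Genes that reached 10 counts in 3 or more libraries were tested with edgeR's quasi-likelihood test (version 4.0.16, R version 4.3.3), with Benjamini-Hochberg adjustment over all genes and a threshold of 0.05, and the test was checked on simulated data. Python (version 3.11.15), pandas (version 2.3.3) and scipy (version 1.17.1) did the rest. Alternatives were DESeq2 (version 1.42.0), scaling by library size, no filter, at least 30 summed counts, a prior count of 2, a replicate block, lengths of merged exons or of the secreted transcript, pooled counts and leaving out each library. Transcript lengths and sequences came from GENCODE M21.

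The members and lists were chosen with earlier results of these data known. Named genes are the 10 members, Hnrnpdl, the defining B cell and plasma cell genes, of each list the called genes with the largest change (at most 4) and the 5 genes most like the summed constant level; 1 of the defining B cell genes is not reported here. Tent5c, Fcer1g, Fcgrt, Trim21, Tnfsf13, Tnfsf13b, Pigr, Ighd, Ighe and the named genes of the tissue and cell type checks were named after their values were seen. The same holds for Ifng, Txndc5 and Ell2. The p-values measure the spread between these samples only, which may be technical.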

Additional observations from a re-analysis of the deposited data

How the results depend on the processing

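Of 188 alternative values, 177 were classed as the same as the main value. Levels and shares were classed so when they moved by less than the spread between replicates, also where the direction turned. Numbers of genes called were classed by the size of their change alone, so that 5379 against 6520 counted as the same. Leaving out 1 library moved the number of B cell, plasma cell and other constant genes called from 9 to between 8 (without control 2) and 14 (without labelled KD library 1). The number of all genes called went from 5379 to between 3492 and 6520. Leaving out control 1, 2 or 3 gave 3546, 3553 and 3492, with fewer samples in the fit. Over the same settings the log2 difference ran from 0.54 to 2.67 for Ighm, from -0.22 to 2.91 for Ighg2b, from -0.56 to 1.34 for Igha and from 1.18 to 3.36 for Iglc2. Counts per kilobase of merged exons gave Igha 8.71% of heavy chain counts in the labelled KD libraries, against 12.2%. Counts per kilobase of the secreted transcript, an alternative chosen after seeing the data, gave 35.3% for Ighm and 51.0% for IgG there, against 42.4% and 45.4%, since the Ighm transcript is longer.

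Control and labelled KD libraries of the same number did not deviate together (correlations of 0.045, 0.115 and -0.092), so the numbers do not pair them. With a replicate block 4635 genes were called in all, 12 of the B cell, plasma cell and other constant genes, 6 antibody receptors and 3 ligands. Members at a few counts, above all Iglc2 in control 1, are limited by depth.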
